A study of Mus musculus with 12 samples.

Results

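Cadherins, protocadherins, neurexins and their postsynaptic partners were examined across the islet cells of this study, as 122 genes chosen by symbol alone: 23 Cdh genes, 58 clustered and 12 other Pcdh genes, 3 Nrxn, 3 Nlgn, 4 Lrrtm, 6 Cntn, 7 Cntnap, 4 Cadm, and Ncam1 and Ncam2. Of these, 120 were among the 45808 genes measured in bulk and 121 among the 31055 measured in single cells, with 119 in both. The γ-cells came from 2-month-old Ppy-rtTA;TetO-Cre;R26-YFP mice of mixed background, in which doxycycline (DOX, 1 mg/ml in the drinking water) switched on YFP for good in cells that expressed Ppy. In the study's description rtTA took the place of Ppy on the modified allele, and cells that later lost Ppy or gained another hormone kept the label. The δ-cells came from 2-month-old Sst-Cre;R26-YFP mice, in which any cell that ever expressed Sst was labelled, also outside the adult δ-cell. The labels describe the mice of both lines together as DOX-treated. For single cells, the labels name the mice Ppy-rtTA;R26-YFP, and YFP+ and YFP- islet cells of 2-month-old DOX-treated mice were loaded separately in each of 2 experiments. The labels do not say from how many animals a library came, so p-values measure the spread between libraries, which may in part be technical. For single cells, the study describes 2 independent experiments, with islets of 3 and 4 mice. All bulk samples were YFP+ cells sorted by FACS, 5 γ- and 3 δ-cell libraries.

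Classical cadherins bind the same cadherin on the neighbouring cell, and their tails reach the actin cytoskeleton through catenins. Protocadherins are a larger and more divergent branch, and their gene clusters give each neuron its own combination of isoforms. Neurexins sit on the presynaptic side and bind neuroligins, LRRTM proteins and other ligands across the cleft, while CADM, contactin and NCAM proteins are adhesion molecules of the immunoglobulin superfamily. Islet endocrine cells use E-cadherin, N-cadherin and NCAM to hold together and to sort within the islet, and they share neurexins and neuroligins with synapses as part of their secretory machinery.

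The bulk libraries held between 7641916 and 31784878 counts, and the single-cell libraries 5862 cells once doublets were removed. The genes examined are of low abundance: they took between 0.138 and 0.165% of the counts of the γ-cell libraries and between 0.266 and 0.339% of those of the δ-cell libraries, so that the groups did not overlap. They took between 0.0341 and 0.0478% of the UMIs of the single-cell libraries. In the bulk samples, fewer cells of a type and less RNA per cell cannot be told apart. The cell type also cannot be told apart from the read layout, since γ-cell libraries were sequenced with paired ends and δ-cell libraries with single ends, on different Illumina instruments. The hormone named by the label was the higher one in each group: Ppy stood between 87365 and 116446 CPM (counts scaled for library size) in γ-cell libraries against 10889 to 16501 in δ-cell libraries, and Sst between 69804 and 101118 CPM in δ-cell libraries against 7119 to 11511. The γ-cell libraries also held Gcg at 43968 to 83707 CPM and Ins2 at 5225 to 15417 CPM, against at most 6696 and 2297 CPM in the δ-cell libraries. A list of 8 acinar markers summed to 1619 to 9181 CPM in γ- and 17273 to 67130 CPM in δ-cell libraries, with none of the 8 at 0 in either group. The part of these other cells in the differences below was not tested, except where values are given beside a result.

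Some libraries stood apart. The δ-cell library 1 held 279.8 CPM of 10 endothelial markers, against 38.97 to 73.6 CPM in the other 7 libraries, and 68.3 CPM of 5 glial markers, against 4.58 to 27.5 CPM. A list of 10 gut epithelial markers, added after the data had been seen, summed to 206 to 451 CPM in δ-cell libraries and 34.9 to 56.7 CPM in γ-cell libraries, where 5 of the 10 had no count. The highest sum was that of δ-cell library 2. In δ-cell library 3, Vil1 gave 134.7 and Lgals4 68.3 CPM, while Krt20, Fabp2 and Rbp2 stood at 0.0941 CPM each and Muc2 and Tff3 at 0. Those 5 genes stood at 4.45 to 42.8 CPM in δ-cell libraries 1 and 2. Vil1 stood at 21.7 to 37.8 CPM in the γ-cell libraries. The γ-cell library 3 held 3345 CPM of 10 stromal markers, against 10.4 to 1183 CPM in the others.

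Promoter sequences are shown for 4 of the 7 genes that differed between γ- and δ-cells in the same direction in both assays, as described below, to set the genes of either direction side by side. Each line gives the 250 bases before the start that RefSeq annotates (GRCm38.p6), 5′ to 3′ on the strand of the gene. Capitals mark each match to the E-box CANNTG, which basic helix-loop-helix factors bind, or to the TATA element TATAAA. The promoters of Lrrtm1 at chr6:77242227-77242476 (plus strand) and Pcdh8 at chr14:79771313-79771562 (minus strand) belong to genes that were higher in γ-cells. Those of Cdh8 at chr8:99416472-99416721 (minus strand) and Ncam2 at chr16:81200447-81200696 (plus strand) belong to genes that were higher in δ-cells.
Lrrtm1: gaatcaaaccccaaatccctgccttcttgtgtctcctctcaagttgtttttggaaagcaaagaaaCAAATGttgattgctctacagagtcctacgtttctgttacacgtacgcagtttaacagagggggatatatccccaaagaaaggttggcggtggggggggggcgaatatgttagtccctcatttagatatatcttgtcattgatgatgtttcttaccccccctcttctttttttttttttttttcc
Pcdh8: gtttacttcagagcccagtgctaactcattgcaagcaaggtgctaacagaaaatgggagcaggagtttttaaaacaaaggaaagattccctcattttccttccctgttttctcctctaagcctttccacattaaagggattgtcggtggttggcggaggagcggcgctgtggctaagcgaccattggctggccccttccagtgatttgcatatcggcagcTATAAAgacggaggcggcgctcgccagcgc
Cdh8: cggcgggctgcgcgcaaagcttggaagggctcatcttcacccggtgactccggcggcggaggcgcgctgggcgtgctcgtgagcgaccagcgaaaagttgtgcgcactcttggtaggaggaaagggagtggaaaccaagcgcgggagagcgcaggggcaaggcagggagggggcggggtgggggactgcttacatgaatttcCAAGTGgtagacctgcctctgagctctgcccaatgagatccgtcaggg
Ncam2: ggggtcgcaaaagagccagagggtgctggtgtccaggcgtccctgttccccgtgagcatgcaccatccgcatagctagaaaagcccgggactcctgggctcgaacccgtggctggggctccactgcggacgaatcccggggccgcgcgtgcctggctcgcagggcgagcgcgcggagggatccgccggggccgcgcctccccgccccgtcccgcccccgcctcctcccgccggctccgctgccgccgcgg
The windows of Lrrtm1 and Pcdh8 were 42 and 51.2% G or C, with 5 and 11 CpG dinucleotides, and those of Cdh8 and Ncam2 were 64.4 and 75.2% G or C, with 20 and 32. Over all 32851 promoter windows of this length the median was 52.4% and 6 CpG. CANNTG, which is its own reverse complement, had 1 match each before Lrrtm1 and Cdh8 and none before Pcdh8 and Ncam2, and 66.2% of all windows held at least 1. TATAAA, searched on both strands, was found once before Pcdh8 and in 12.4% of all windows. The letters TAATTA and GGAAGT, also searched on both strands, were in none of the 4 windows, and in 4.84 and 19.7% of all windows. These are matches of letters and say nothing of binding. RefSeq windows were matched for 41 of the 122 genes. The window of Cdh9, also higher in γ-cells in both assays, is not shown because it runs past the gene start used here (chr15:16728756). It was 48% G or C, with 6 CpG, 3 matches to CANNTG and none to the other letters.

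E-cadherin (Cdh1) and N-cadherin (Cdh2), the classical cadherins of epithelia and of neural and endocrine cells, were the genes examined with the highest level per exon length in γ-cells. Counts divided by exon length and scaled to the same total in each library (a TPM-like level) gave Cdh1 131 ± 13.6 (SD, n = 5), Cdh2 32.8 ± 3.31, Lrrtm1 32.6 ± 10.9, Ncam1 25.9 ± 4.02 and Pcdh8 11.9 ± 2.12 in γ-cells. Neither Cdh2 and Lrrtm1 nor Lrrtm1 and Ncam1 differed beyond their spread. In δ-cells the order was Cdh1 at 408 ± 37.3 (SD, n = 3), Ncam1 at 111 ± 28.5, Cdh2 at 54.1 ± 16.6, Cadm1 at 42.04 ± 11.1 and Cdh8 at 41.3 ± 9.55, the last 3 of which overlapped in their spread. Lrrtm1 was 3rd in γ-cells and 47th in δ-cells and Pcdh8 5th and 115th. These levels rank genes within a cell type and were not used between them.

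Between γ- and δ-cell libraries, 35 of the 106 genes that had at least 5 counts per library on average passed the bulk test, 17 higher in γ- and 18 higher in δ-cells. A gene passed with an adjusted p (edgeR quasi-likelihood test, Benjamini-Hochberg over all genes) of at most 0.05 and a log2 fold change of at least 1. Of all 17926 genes tested, 35% passed (20.7% higher and 14.2% lower in γ-cells), so that the share of 33% among the genes examined was near that of all genes. Their median log2 difference was -0.23, against -0.06 (-0.055) over all genes. With upper-quartile scaling, which moved the median of all genes to -0.35, 11 were higher and 30 lower in γ-cells, against 17 and 20.9% of all genes under the same scaling. A further 9 genes had an adjusted p under 0.05 with a smaller fold, and 14 of the 120 in the table were too low to test. Among the 106 genes tested, every γ-cell library lay above every δ-cell library in 15 and every δ-cell library lay above in 26, against 27.8 and 26.5% of all genes tested. Below, levels are CPM after TMM scaling unless said otherwise.

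**Figure D1:**
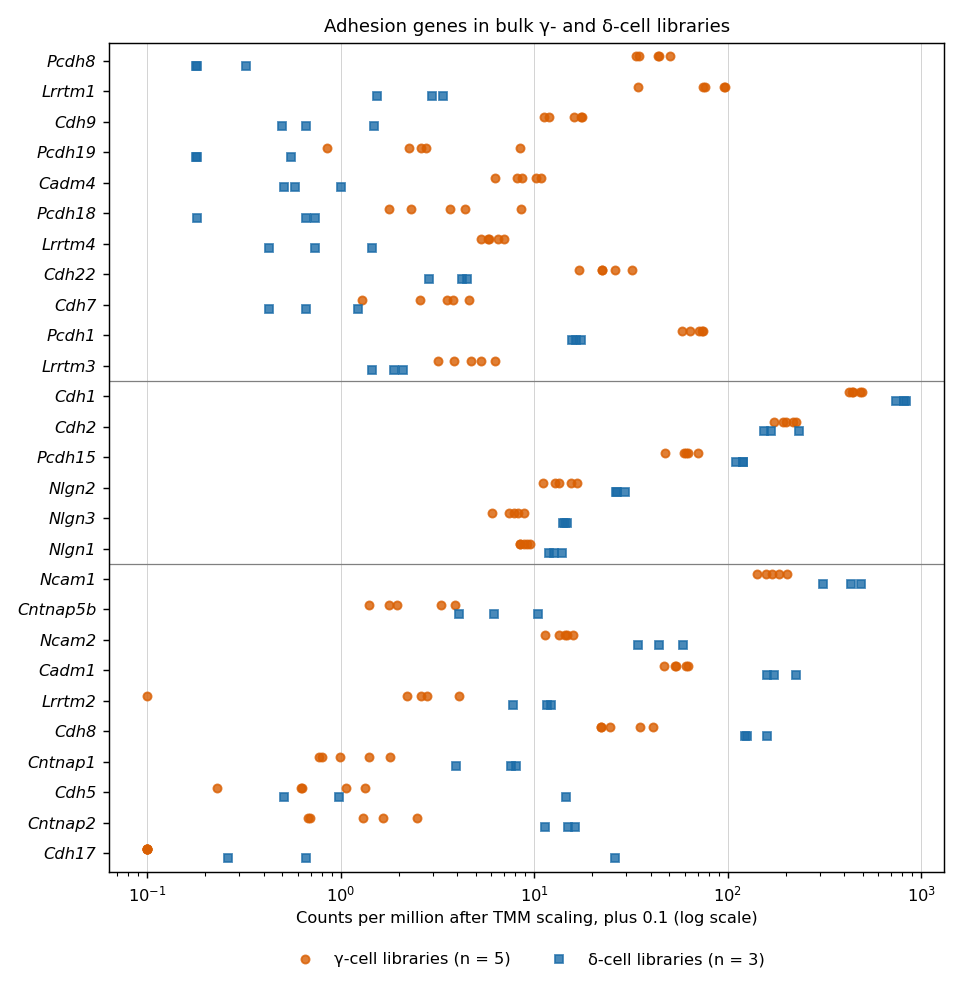
Level of each gene drawn in each bulk library, in CPM after TMM scaling plus 0.1 on a logarithmic axis, for γ-cells (circles, n = 5) and δ-cells (squares, n = 3). Not every gene that passed is drawn: clustered protocadherins and genes with a mean under 3 CPM in the higher group are left out. The upper block holds genes that passed the test with higher levels in γ-cells, such as Pcdh8 at 33.3 to 50.3 against at most 0.226 CPM, the middle block Cdh1, Cdh2, Pcdh15 and the neuroligins, which did not pass, and the lower block genes with higher levels in δ-cells, with Cdh5 and Cdh17 set by 1 δ-cell library each.

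Among the leucine-rich postsynaptic ligands of neurexins, Lrrtm1, Lrrtm3 and Lrrtm4 were higher in γ-cells and Lrrtm2 was higher in δ-cells. Lrrtm1 (chr6:77242689-77257791) stood at 74.1, 76.5, 34.2, 96.5 and 95.5 CPM in the γ-cell libraries and at 3.28, 1.44 and 2.85 CPM in the δ-cell libraries. Library 3 was the lowest of the γ-cells, yet above each δ-cell library. The log2 fold change was 4.92 ± 0.42 (SE; edgeR adjusted p = 4.31e-06). Lrrtm4 stood at 5.22 to 6.87 CPM in γ- and 0.326 to 1.36 CPM in δ-cells (log2 fold change 2.98 ± 0.47, edgeR adjusted p = 0.000405). For Lrrtm3, γ-cell libraries held 3.09 to 6.14 CPM and δ-cell libraries 1.36 to 2 CPM, a difference of 1.41 ± 0.38 on the log2 scale. Lrrtm2 ran the other way, at 0 to 3.99 CPM in γ- and 7.67 to 12.1 CPM in δ-cells (-2.18 ± 0.76), and its call was lost in 5 of the 8 fits that left out 1 library.

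The presynaptic neurexin Nrxn3 was higher in γ-cells but low, at 1.04 to 5.5 CPM in γ- and 0.479 to 1.13 CPM in δ-cells, with 1 γ-cell library below the highest δ-cell library (1.97 ± 0.68). Nrxn2 overlapped between the groups, at 1.69 to 4.71 against 0.959 to 2.26 CPM, and did not pass the test (edgeR adjusted p = 0.102). All 3 neuroligins, the postsynaptic partners of neurexins, lay lower in every γ-cell library than in any δ-cell library, but with folds under the threshold. Nlgn2, known from inhibitory synapses, stood at 11.1 to 16.6 against 26.4 to 29.4 CPM, with a log2 difference of -0.99 ± 0.16 (edgeR adjusted p = 0.000489). The log2 differences of Nlgn3 and Nlgn1 were -0.91 ± 0.19 and -0.54 ± 0.17.

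Of 16 Cdh genes tested, 3 were higher in γ- and 5 higher in δ-cells. Cdh9 (chr15:16728756-16857094), a type II cadherin, stood at 11.8, 11.2, 17.7, 16 and 17.4 CPM in γ-cells and at 0.565, 0.4 and 1.38 CPM in δ-cells (4.21 ± 0.43, edgeR adjusted p = 1.5e-05). Cdh22, also called PB-cadherin, was higher in each γ-cell library, at 16.9 to 31.9 against 2.77 to 4.41 CPM (2.67 ± 0.27). Cdh7, a low gene, gave 1.19 to 4.51 against 0.326 to 1.13 CPM. Cdh8, a type II cadherin like Cdh9, had the opposite order: 22.1, 22.1, 24.6, 41.1 and 35.2 CPM in γ-cells and 123, 125 and 160 CPM in δ-cells, a difference of -2.23 ± 0.21 (edgeR adjusted p = 9.89e-06). Thus, 2 type II cadherins, Cdh9 and Cdh8, separated the libraries in opposite directions without overlap, as did 27.8 and 26.5% of all genes tested in these directions.

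Cdh1 stood at 421 to 497 CPM in γ-cells and 743 to 839 CPM in δ-cells, without overlap and under the fold threshold (-0.81 ± 0.11, edgeR adjusted p = 0.000137). Cdh2 overlapped fully, at 173 to 226 against 154 to 234 CPM (edgeR adjusted p = 0.518). The remaining cadherin calls were low or rested on 1 library. Cdh10 and Cdh6, both type II cadherins, stood at or below 0.654 CPM in γ- and at 1.22 to 3.96 CPM in δ-cells. The call of Cdh6 was lost without δ-cell library 1 or 2. In single cells, 88 of its 100 UMIs lay in a cluster led by Spp1, Apoc1 and Clu with Sox9, and 1 in that led by Defa30 and Sst. Before TMM scaling, a list of 8 ductal markers summed to 848 to 1705 CPM in the δ- and 550.1 to 709.5 CPM in the γ-cell libraries. The part of ductal cells in the bulk difference was not tested. VE-cadherin (Cdh5), which defines endothelial junctions, was at 14.5 CPM in δ-cell library 1 and at 0.131 to 1.24 CPM in the other 7 libraries. Without that library its log2 difference was 0.08 (edgeR adjusted p = 0.951). Cdh17, or LI-cadherin of liver and intestine, had no count in any γ-cell library and stood at 26.1 CPM in δ-cell library 2, against 0.565 and 0.163 CPM in the other δ-cell libraries. Over the group this was at least 344-fold higher, with 3 counts over the group as the floor. That bound was set by δ-cell library 2 and does not hold for the other δ-cell libraries. The call was lost with DESeq2 and shrunken fold changes.

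Of the 12 Pcdh genes outside the clusters, 4 were higher in γ-cells, none was higher in δ-cells past the fold threshold, and 8 did not pass. Pcdh8 (chr14:79766775-79771312), or arcadlin, which neurons induce with activity, was nearly absent from δ-cells. It stood at 43.7, 50.3, 33.3, 44 and 34.7 CPM in γ-cells and at 0.226, 0.0799 and 0.0814 CPM in δ-cells, which was 1 or 2 counts per δ-cell library. The log2 fold change was 8.34 ± 0.33 (edgeR adjusted p = 3.12e-08). Pcdh1 stood at 58 to 74.4 CPM in γ- and 15.6 to 17.3 CPM in δ-cells (2.05 ± 0.12, edgeR adjusted p = 3.41e-07). Pcdh15, a tip link protein of hair cells, was lower in each γ-cell library, at 47.1 to 70.3 against 110 to 119 CPM, with a log2 difference of -0.96 ± 0.12. Pcdh18 and Pcdh19 were each highest in γ-cell library 3, at 8.49 and 8.35 CPM, and reached at most 0.639 and 0.452 CPM in δ-cells. This was the library with the highest sum of stromal markers. Both calls held without it. Before TMM scaling, the other γ-cell libraries held 526 to 1183 CPM of those markers and the δ-cell libraries 925, 322 and 10.4 CPM. In single cells, 51 of 58 UMIs of Pcdh18 and 77 of 104 of Pcdh19 lay in stromal-like cells, and Ppy+ cells held 0 and 1. The part of stromal cells in these bulk differences was not tested.

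Of 4 Cadm genes tested, 1 was lower and 1 higher in γ-cells, and both Ncam genes were lower. Cadm1 (chr9:47530173-47857637), or SynCAM1, stood at 46.6 to 62.4 CPM in γ- and at 160, 172 and 227 CPM in δ-cells (-1.75 ± 0.14, edgeR adjusted p = 2.07e-06). Ncam1, the neural cell adhesion molecule that islet cells share with neurons, gave 141 to 203 against 312, 433 and 487 CPM (-1.26 ± 0.16), and its paralogue Ncam2 gave 11.3 to 15.7 against 34.2, 44.3 and 58.6 CPM (-1.72 ± 0.18). Groups did not overlap in any of these 3 genes. Cadm4 was the exception, with 6.18 to 10.7 CPM in γ- and 0.407 to 0.905 CPM in δ-cells (3.88 ± 0.40, edgeR adjusted p = 1.78e-05). Cadm2 and Cadm3 overlapped between the groups. Among 5 Cntnap genes tested, the contactin-associated relatives of neurexins, 3 were higher in δ-cells: Cntnap2 at 11.3 to 16.1 against 0.579 to 2.37 CPM (-3.47 ± 0.45), Cntnap1 at 3.83 to 7.98 against 0.677 to 1.69 CPM and Cntnap5b at 3.99 to 10.4 against 1.3 to 3.81 CPM. None of the 3 Cntn genes tested passed.

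The 58 clustered protocadherins are counted less surely than the rest, since the α- and γ-cluster genes share constant exons and reads there belong to no single gene. In the median, 61.5% of the exon length of such a gene was free of other genes on its strand, and for single genes between 8.56 and 100%. Free of genes on either strand were 26.4% of Pcdhga11, 36.4% of Pcdha12 and 0% of Pcdhga10, which had no bulk count and 9 UMIs. Which share applies to the bulk counts depends on the strand setting, which is not given. Of 54 tested, 5 were higher in γ-cells, namely Pcdhb6, Pcdhb8, Pcdhb10, Pcdhb11 and Pcdhb22, and 5 in δ-cells, namely Pcdha9, Pcdha12, Pcdhga11, Pcdhga12 and Pcdhgb4. Those higher in γ-cells all belonged to the β-cluster, whose genes share no constant exons, and their log2 differences ran from 1.30 to 1.80. All 5 lost their calls under upper-quartile scaling, and each lost its call in 5 or 6 of the 8 fits that left out 1 library. Among those higher in δ-cells, Pcdha12 lost its call in 4 of the 8. Those higher in δ-cells all belonged to the α- and γ-clusters. Pcdhga12 had the largest difference of these 10 genes, at 13.7, 17.6 and 20.5 CPM in δ-cells against 1.67 to 6.18 CPM in γ-cells (-2.51 ± 0.40, edgeR adjusted p = 0.000406). The other 44 genes tested did not pass.

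In single cells, hormone thresholds and clusters gave 1476 monohormonal Ppy+, 630 Gcg+, 530 Ins2+ and 259 Sst+ cells and 714 bihormonal Ppy+Gcg+ cells, and their UMIs were summed per class and experiment. Between 39 and 163 of 5862 cells lay within 0.5 of a hormone threshold, on the natural log scale. The genes examined and their partners had been left out of the features used for clustering. Of the Ppy+ cells, 1465 came from the YFP+ libraries, whereas the other monohormonal classes came from the YFP- libraries but for 1 cell. Differences between Ppy+ and the other classes therefore cannot be told apart from differences between libraries, apart from what a fit with the library as a block gives. In that fit the only Ppy+ sum from a YFP- library held 10 cells and 38801 UMIs, and the other monohormonal classes had no sum from a YFP+ library. A call lost there thus does not show that a gene does not differ. Of the 121 genes, 27 had enough UMIs to be tested, so that the counts below describe these 27 only, and genes low in every class are not among them. A gene passed with an edgeR adjusted p of at most 0.05 and a log2 fold change of at least 0.72, the value of the 0.5 natural log units used in the study. With 2 sums per class, p-values rest on a spread estimated over all 14 sums.

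Monohormonal Ppy+ cells differed from Gcg+ cells in 10 of the 27 genes (8 higher, 2 lower), from Ins2+ cells in 19 (12 higher, 7 lower) and from Sst+ cells in 12 (3 higher, 9 lower). Of all 10556 genes tested, 12.6% passed against Gcg+ cells (5.91% higher, 6.68% lower), 26.3% against Ins2+ cells (12.2% higher, 14.1% lower) and 12.2% against Sst+ cells (5.32% higher, 6.92% lower). The medians over the 27 genes were 0.12, 0.22 and -0.59 on the log2 scale, against -0.01 (-0.0109), 0.00 (0.0036) and 0.02 over all genes. Between the other classes, 16 genes differed between Gcg+ and Ins2+ cells (9 higher, 7 lower; of all genes 22.3% passed, 10.5% higher and 11.8% lower), 13 between Gcg+ and Sst+ cells (12.2%) and 13 between Ins2+ and Sst+ cells (15.3%). Against Sst+ cells, the lower count was the larger in each class: 9 genes lower and 3 higher in Ppy+, 11 and 2 in Gcg+, and 10 and 3 in Ins2+ cells, with the Sst+ sums shared by all 3 comparisons. Of all genes, 6.61% were lower and 5.54% higher in Gcg+, and 7.41% lower and 7.92% higher in Ins2+, than in Sst+ cells. With the library as a block, where 16 of the genes could be tested, 4, 7 and 4 passed for Ppy+ against Gcg+, Ins2+ and Sst+ cells, and of all 8089 genes in that fit 5.71, 16.9 and 6.01% did. Cells of the Sst+ class were the shallowest, with a median of 3684 UMIs against 22440 in Ins2+ cells.

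**Figure D2:**
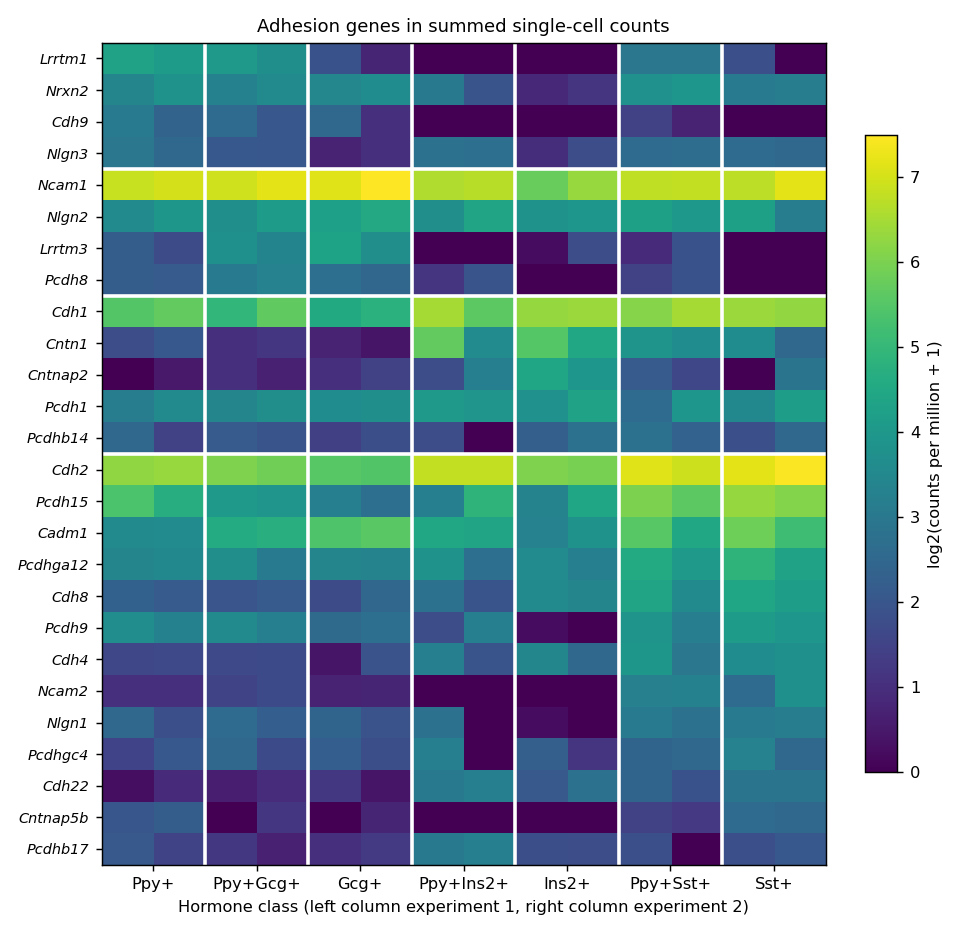
Level of 26 of the 27 tested genes in sums over the cells of each hormone class, as log2(CPM + 1) by colour, with the 2 experiments side by side and genes grouped by the monohormonal class with the highest mean. Lrrtm1 and Cdh9 are brightest in Ppy+ and Ppy+Gcg+ cells, at 16.4 and 18.7 and at 4.27 and 7.46 CPM in Ppy+ cells, and both are at 0 in Ins2+ cells, while Cdh2, Pcdh15 and Cdh8 are brightest in Sst+ cells.

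Lrrtm1 was higher in Ppy+ cells than in all 3 other monohormonal classes. It stood at 18.7 and 16.4 CPM in Ppy+ cells of experiments 1 and 2, at 2.68 and 0.701 CPM in Gcg+ cells, at 2.57 and 0 CPM in Sst+ cells and at 0 in Ins2+ cells. Of 1476 Ppy+ cells, 149 (10.1%, exact 95% interval 8.6 to 11.7) held a UMI of it, at a median depth of 6762 UMIs. In B lineage-like cells, which should lack it, 7 of 240 (2.92%, 1.18 to 5.92) did, at a median of 8554 UMIs (8553.5). All 7 were among 57 cells that the finer clustering placed in a cluster led by T cell genes, and those cells also held Ppy at 97777 CPM before scaling. None of the other 183 cells of the class held a UMI of it, at a median of 8547 UMIs, which allows a share of up to 1.64%, and none of 220 endothelial-like and 253 stromal-like cells did, at medians of 1675 and 2616 UMIs. The shares of 1.59% in Gcg+ and 0.772% in Sst+ cells lay below the limit of 1.64%. Those 183 B lineage-like cells therefore could not tell them from background at this depth. The log2 difference from Gcg+ cells was 3.33 ± 0.37 (edgeR adjusted p = 1.66e-08), while Sst+ cells held only 2 UMIs against 170, a ratio of 12.5 (exact 95% interval 3.4 to 104, counting error only). None of 530 Ins2+ cells held a UMI of it, which with a floor of 3 counts allows a share of cells with a UMI of up to 0.566%. The level in Ppy+ cells was at least 35.6-fold higher, with 3 counts over the group as the floor. The exact 95% interval of the share in Gcg+ cells, 0.764 to 2.9%, lay above the limit of 0.566%. Gcg+ cells held 10 UMIs and passed against Ins2+ cells, at least 3.47-fold higher at the same floor. That call was lost without the sum of experiment 1 of either class. With the library as a block, the calls of Ppy+ against Gcg+ and Sst+ cells were lost, at log2 differences of 2.19 (edgeR adjusted p = 0.064) and 2.52 (edgeR adjusted p = 0.151).

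Cdh9 and Pcdh8 were found in Ppy+ and Gcg+ cells and not in the other monohormonal classes. Cdh9 gave 7.46 and 4.27 CPM in Ppy+ and 4.69 and 1.05 CPM in Gcg+ cells, a difference that did not pass (edgeR adjusted p = 0.114), and no UMI in Ins2+ or Sst+ cells. Its level in Ppy+ cells was at least 12.0-fold higher than in Ins2+ cells and at least 2.78-fold higher than in Sst+ cells, where 0 of 259 cells with a UMI allows a share of such cells of up to 1.16% at the lowest depth of the 4 classes. Pcdh8 gave 3.63 and 3.42 CPM in Ppy+, 5.7 and 4.56 CPM in Gcg+ and 7.51 and 9.07 CPM in Ppy+Gcg+ cells, again with no UMI in Ins2+ or Sst+ cells. Its level in Ppy+ cells was at least 7.13-fold that of Ins2+ cells, but only at least 1.66-fold that of Sst+ cells, a difference that each fit without 1 sum of either class lost. A UMI of Pcdh8 was held by 2.17% of Ppy+ cells (interval 1.49 to 3.05), 4.29% of Gcg+ cells (2.84 to 6.17) and 0.833% of B lineage-like cells (0.101 to 2.98), where both cells were among the 57 with T cell genes and Ppy. The other 183 had none, which allows up to 1.64%, a share within the interval of Ppy+ cells and below that of Gcg+ cells. A cluster with both Sst and Ppy was not without these genes. This finer cluster of 301 cells, led by Fam159b, Dpp6 and Sst and high in Ppy, held Pcdh8 at 8.61 and Cdh9 at 2.97 CPM before scaling. Its mean Gcg of 5.14, on the natural log scale, also lay near the Gcg threshold of 5.22. Which of its cells held the UMIs was not tested. Another Sst-led finer cluster, of 495 cells, held no UMI of either. Its mean Ppy of 3.22 lay near the Ppy threshold of 3.28, against 4.99 in the cluster of 301 cells, and its mean Gcg was 3.10.

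Lrrtm3, a close relative of Lrrtm1, was instead highest in Gcg+ cells, at 19.4 and 11.9 CPM against 3.63 and 2.35 CPM in Ppy+ cells (-2.37 ± 0.34, edgeR adjusted p = 1.73e-06) and 0 in Sst+ cells. Cadm1 followed the same order between these classes, at 42.2 and 46.3 CPM in Gcg+ and 10.7 and 11.3 CPM in Ppy+ cells (-2.01 ± 0.20, edgeR adjusted p = 8.83e-10). In Sst+ cells it reached 56.5 and 34.7 CPM, which overlapped the Gcg+ values. Cdh1 and Cdh2 were lower in Gcg+ than in Ppy+ cells, at 22.5 and 26.7 against 43.5 and 50.6 CPM for Cdh1 and at 45.9 and 42.8 against 75.4 and 80.1 CPM for Cdh2 (log2 differences of 0.94 ± 0.18 and 0.81 ± 0.13). Both calls were lost with cells thinned to 1000 UMIs, and that of Cdh2 also with the library as a block. Pcdh15 gave 40.5 and 24.5 CPM in Ppy+ and 8.38 and 5.61 CPM in Gcg+ cells (2.20 ± 0.27, edgeR adjusted p = 7.54e-08). Nlgn3 gave 6.85 and 4.7 CPM in Ppy+ and 0.671 and 1.05 CPM in Gcg+ cells (2.68 ± 0.56), whereas Nlgn1 had a log2 difference of 0.04 ± 0.44 and Nlgn2 had a log2 difference of -0.65 ± 0.21 under the threshold.

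Ins2+ cells held Cntn1, a contactin, and Cntnap2 at the highest mean of the monohormonal classes. They gave Cntn1 at 45.1 and 21.5 CPM and Cntnap2 at 20.5 and 14.3 CPM, against at most 3.2 and 0.427 CPM in Ppy+ cells. The log2 difference for Ppy+ minus Ins2+ cells was -3.61 ± 0.29 for Cntn1 (edgeR adjusted p = 1.33e-12). For Cntnap2, Ppy+ cells held 2 UMIs against 119, a ratio of 94.6 with an exact 95% interval from 25.6 to 790. Conversely, Ins2+ cells held 5 UMIs of Nrxn2 and 1 UMI each of Nlgn1 and Pcdh9, while Ppy+ cells stood at 9.67 and 13.4 CPM of Nrxn2 and at 11.7 and 8.75 CPM of Pcdh9. Nrxn2 was thus lower in Ins2+ than in Ppy+ cells by 3.62 ± 0.45 on the log2 scale. Ncam1 was lower in Ins2+ cells as well, at 53.3 and 80 CPM against 115 and 129 CPM in Ppy+ cells (0.96 ± 0.14). The Ins2+ sum of experiment 1 held 436 of the 530 cells. Without it, fewer genes passed against Ppy+ cells, among the genes examined and over all genes. Cntn1 and Cntnap2 kept their calls.

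Of the 4 monohormonal classes, Sst+ cells had the highest mean of N-cadherin. All 259 lay in a cluster whose 10 leading genes held Sst and 3 defensins of Paneth cells (Defa30, Defa24 and Defa17). In the Sst+ sums these 3 genes had no UMI in experiment 1 and 30 UMIs, or 76 CPM before scaling, in experiment 2, where Gcg+ and Ins2+ cells held them at 68.7 and 46.9 CPM and Ppy+ cells at 0.544 CPM. Cdh2 stood at 144 and 175 CPM in Sst+ cells and between 42.8 and 80.1 CPM in the 6 sums of the other monohormonal classes, and differed from Ppy+ cells by -1.03 ± 0.14 on the log2 scale (edgeR adjusted p = 1.12e-06). Pcdh15 gave 78.3 and 67.7 CPM in Sst+ cells (-1.17 ± 0.24 for Ppy+ minus Sst+ cells), Cdh8 20.5 and 17.3 CPM (-2.33 ± 0.42), Ncam2 5.13 and 12.6 CPM (-2.98 ± 0.73) and Pcdhga12 28.2 and 18.9 CPM (-1.25 ± 0.32). Cdh4 and Cdh22 were also higher in Sst+ than in Ppy+ cells, at 11.6 and 12.6 CPM and at 6.42 and 6.3 CPM, and their differences between Sst+ and Ins2+ cells did not pass (edgeR adjusted p = 0.578 and 0.574). With the library as a block, the calls of Cdh4 and Pcdhga12 between Ppy+ and Sst+ cells were lost, and that of Cdh22 was lost without the sum of experiment 1 of either class. Ncam2 and Cdh4 lost theirs without the Sst+ sum of experiment 2, and Pcdhga12 without the sum of experiment 1 of either class. The call of Pcdh15 between Ppy+ and Sst+ cells was lost with cells thinned to 1000 UMIs. The UMIs of Pcdhga12 may in part belong to other γ-cluster genes, which share its constant exons. Before scaling, gut epithelial markers in the Sst+ sums came to 20.1 CPM in experiment 1 and 263 CPM in experiment 2, against 4.23 and 4.71 CPM in Ppy+ cells. They came to 212 CPM in Gcg+ and 154 CPM in Ins2+ cells of experiment 2. Their part in these differences was not tested.

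Bihormonal Ppy+Gcg+ cells lay in different clusters, 569 in that of Ppy+ and 145 in that of Gcg+ cells. In their sums, 4 of the 27 genes differed from monohormonal Ppy+ cells (3 higher, 1 lower; of all genes 2.73% passed, 1.75% higher and 0.976% lower) and 2 from Gcg+ cells (1 higher, 1 lower; of all genes 3% passed, 1.32% higher and 1.69% lower). Lrrtm1 did not pass against Ppy+ cells, at 15.3 and 12.2 CPM (-0.36 ± 0.23, edgeR adjusted p = 0.486), and was higher than in Gcg+ cells by 2.97 ± 0.40 (edgeR adjusted p = 4.73e-06), a call lost with the library as a block at 1.94 (edgeR adjusted p = 0.465). Cadm1 lay between both monohormonal classes, at 23.3 and 25 CPM, higher than in Ppy+ cells by 1.13 ± 0.22 and lower than in Gcg+ cells (-0.88 ± 0.19). The latter call was lost with the library as a block (-0.40, edgeR adjusted p = 0.841), without the experiment as a block, with thinned cells, with DESeq2 and without the Gcg+ sum of experiment 2 or the bihormonal sum of experiment 1. Before scaling, Cadm1 stood at 19.3 and 22.8 CPM in the bihormonal cells of the Ppy+ cluster and at 40.2 and 46.8 CPM in those of the Gcg+ cluster, against 8.98 and 9.6 CPM in Ppy+ and 45.8 and 52.8 CPM in Gcg+ cells. Lrrtm3 gave 12.6 and 9.39 CPM, higher than in Ppy+ cells by 1.86 ± 0.35 (edgeR adjusted p = 0.000623) and with no difference from Gcg+ cells past the test (edgeR adjusted p = 0.434). Pcdh15 was lower than in Ppy+ cells, at 15.3 and 14.1 CPM (-1.14 ± 0.22), and Pcdh8 was higher by 1.21 ± 0.35 (edgeR adjusted p = 0.0381). Without the experiment as a block none of the 4 passed against Ppy+ cells with edgeR, although 6 of the 27 had an unadjusted p under 0.05, and DESeq2 called 1. Ppy+Sst+ cells held Cdh2 at 138 and 119 CPM, Pcdh15 at 64.2 and 47.7 CPM and Lrrtm1 at 6.84 and 6.81 CPM, and Ppy+Ins2+ cells held Cntn1 at 50.7 and 11.3 CPM with no UMI of Lrrtm1, as values without a test.

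The comparison of γ- with δ-cells could be set side by side in both assays for 26 genes, which share no samples between assays. The signs matched in 20 of them (76.9%), against 52.6% of the 10112 genes tested in both. Of all those genes, 6.51% passed both tests and 5.23% did so in the same direction. Of 8 genes examined that passed both tests, 7 had the same direction in both: Lrrtm1, Pcdh8 and Cdh9 were higher in γ-cells, and Cadm1, Cdh8, Ncam2 and Pcdhga12 were higher in δ-cells. In single cells, Cadm1 and Cdh8 kept their calls under each alternative in which they could be tested. The calls of Lrrtm1 and Pcdhga12 were lost with the library as a block, and that of Pcdhga12 also without the sum of experiment 1 of either class. That of Cdh9 was lost without the experiment as a block, with DESeq2 and without the Sst+ sum of experiment 1. That of Pcdh8 was lost without any 1 sum of either class, with DESeq2 and with doublets kept. That of Ncam2 was lost without the Sst+ sum of experiment 2. The log2 differences of Cadm1 were -1.75 ± 0.14 in bulk and -2.07 ± 0.29 in single cells, and those of Cdh8 -2.23 ± 0.21 and -2.33 ± 0.42. Cdh22 passed both tests in opposite directions, at 2.67 ± 0.27 in bulk and -3.50 ± 0.90 in single cells, the latter from 5 UMIs in Ppy+ and 9 in Sst+ cells. Other genes passed in 1 assay only: Ncam1 had -1.26 ± 0.16 in bulk but -0.02 ± 0.15 in single cells, Pcdh1 2.05 ± 0.12 but -0.52 ± 0.38, and Cdh2 0.12 ± 0.15 but -1.03 ± 0.14. Whether the assays differ for these genes was not tested. Bulk reads cover whole transcripts and single-cell UMIs their 3′ ends, and the bulk γ-cells were sorted by YFP without regard to other hormones. Genes of the γ-cluster share constant exons, so that UMIs counted for Pcdhga12 may belong to other genes of the cluster. In all, Pcdhga12 had 944 counts in bulk and 487 UMIs, whereas Pcdhga8 had 4631 counts and 3 UMIs. The match of Pcdhga12 between assays may therefore not concern 1 gene.

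**Figure D3:**
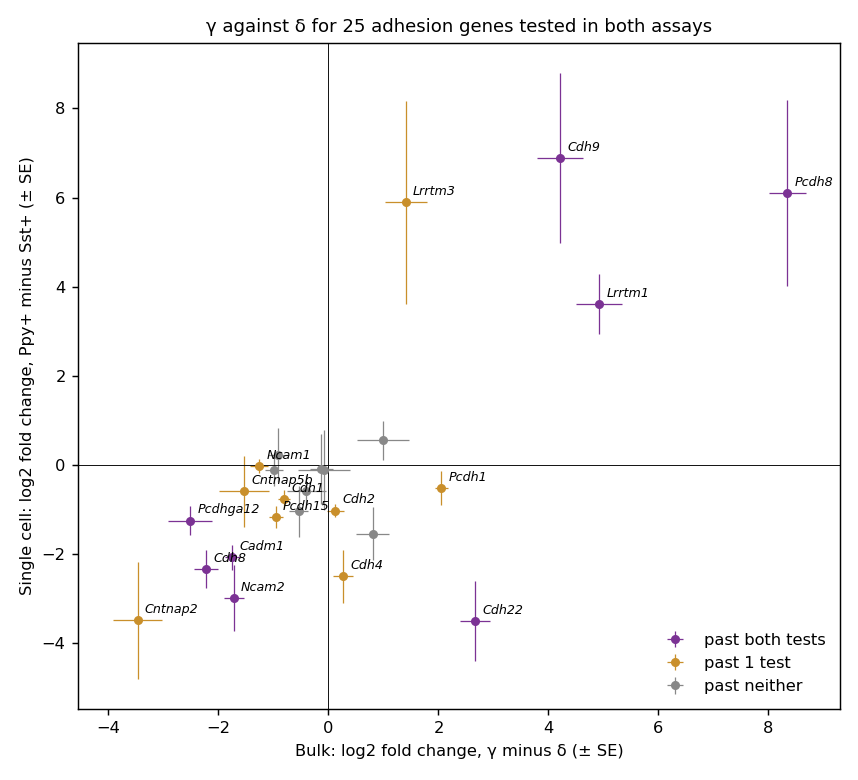
Log2 fold change of γ- against δ-cells in bulk (horizontal axis) and of Ppy+ against Sst+ single cells (vertical axis) for 25 of the 26 genes, with bars of 1 SE in each direction. Pcdh8, Cdh9 and Lrrtm1 stand at the upper right, Cadm1, Cdh8, Ncam2 and Pcdhga12 at the lower left, and Cdh22 alone among the genes past both tests at the lower right, at 2.67 and -3.50.

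Several of the genes examined mark cells other than endocrine cells. In a fit with the non-endocrine clusters, 15 of 28 genes differed between endothelial-like cells and the mean of the 4 monohormonal classes (6 higher, 9 lower; of all genes 35.1% passed, 19.7% higher and 15.4% lower), 17 in stromal-like cells (8 higher, 9 lower; 35.8%, 21.7% higher and 14.1% lower) and 12 in B lineage-like cells (1 higher, 11 lower; 44.3%, 24.1% higher and 20.2% lower). Cdh5 stood at 451 and 477 CPM and Pcdh17 at 254 and 229 CPM in endothelial-like cells, and each was at or below 3.45 CPM in the 8 monohormonal sums. Of 220 endothelial-like cells, 149 (67.7%, exact 95% interval 61.1 to 73.9) held a UMI of Cdh5. Stromal-like cells held Cadm3 at 95.6 and 148 CPM, Pcdh19 at 125 and 56.5 CPM, Pcdh18 at 55 and 53.2 CPM, Pcdh7 at 29 and 63.1 CPM and Cdh11 at 26.1 and 33.2 CPM, each at or below 3.88 CPM in the monohormonal sums. Cdh2, Ncam1 and Cdh1 were lower in all 3 non-endocrine classes, at or below 20.9, 32.7 and 11.8 CPM in their 6 sums. Other genes of endocrine cells were not lower in stromal-like cells: Nlgn2 stood at 17.4 and 18.3 CPM and Pcdhga12 at 11.6 and 11.6 CPM, without passing the test, and Nrxn2 was higher, at 20.3 and 13.3 CPM (log2 difference 1.33 ± 0.52, edgeR adjusted p = 0.0396), a call lost without either stromal-like sum. Of the B lineage-like cells, 57 were those with T cell genes and Ppy.

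**Figure D4:**
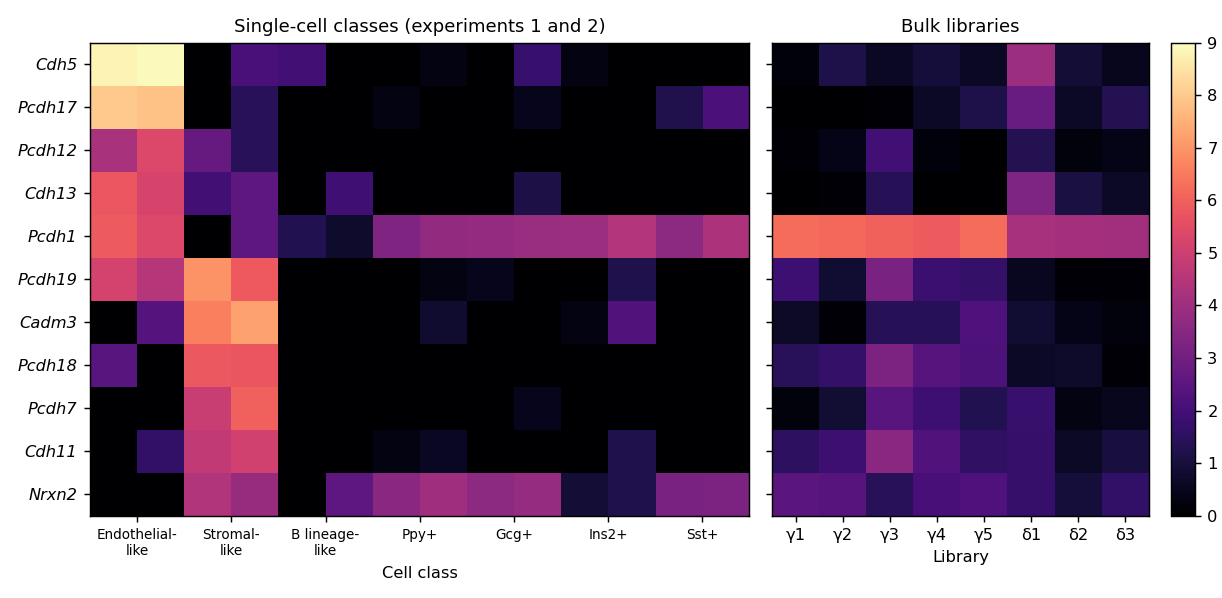
Level of 11 genes, as log2(CPM + 1) by colour, in sums of single cells per class and experiment (left) and in each bulk library (right). Cdh5, Pcdh17 and Cdh13 are bright in endothelial-like cells and, among bulk libraries, in δ1, where Cdh5 is at 14.5 CPM, and Cdh11, Pcdh18, Pcdh19 and Pcdh7 are bright in stromal-like cells and, among bulk libraries, highest in γ3, where Cdh11 is at 10.8 CPM.

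In the bulk libraries, several of these genes were highest where the marker sums were. δ-cell library 1 held Pcdh17 at 5.88 CPM, Cdh13 at 8.82 CPM and Cdh19, a cadherin of glia, at 11 CPM, and γ-cell library 3 held Cdh11 at 10.8 CPM and Pcdh7 at 4.49 CPM. None of these 5 genes passed the bulk test. Other genes higher in endothelial-like cells did not follow these sums: Pcdh1 was higher in every γ-cell library, as given above. Pcdh12 had a TPM-like level of 0.146 ± 0.265 (SD) in γ- and 0.256 ± 0.282 in δ-cells, and did not pass the bulk test. In a finer clustering, Cdh17 was held by 27 of the 30 cells of 1 cluster (90%, exact 95% interval 73.5 to 97.9). Before scaling, Cdh17 stood there at 725 CPM, beside Cdh1 at 444 CPM and without a UMI of Cdh2. The leading genes of the cluster were Tff3, Fcgbp, Gip, Zg16 and Cck. All its cells came from the YFP- library of experiment 2, and it was left unnamed. Elsewhere at most 3.5% of the cells of a cluster held Cdh17, and 0 of 1476 Ppy+ cells did.

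Partner genes were described by 4 lists of 77 genes in all. In bulk, 62 were tested, 19 were higher in γ-cells and 8 lower (20.7 and 14.2% over all genes). Of 7 catenins, 3 were higher in γ-cells, of 24 scaffold genes 8 were higher and 2 lower, of 24 other synaptic adhesion genes 5 were higher and 6 lower, and of 7 genes of the L1 family, nectins and NCAM modifiers 3 were higher. In single cells, 5 of 46 partner genes were higher and 8 lower in Ppy+ than in Sst+ cells (5.32 and 6.92% over all genes). Ctnna2, the neuronal α-catenin that ties cadherins to actin, was higher in γ- than in δ-cells in both assays, at 24.8 to 34.5 against 7.51 to 14.5 CPM in bulk, and at 6.65 and 8.11 CPM in Ppy+ against 1.28 and 0 CPM in Sst+ cells. Ptprd, a receptor phosphatase of presynaptic membranes, had log2 differences of 2.33 ± 0.19 in bulk and 1.27 ± 0.42 in single cells. Chl1, of the L1 family, also passed both tests, with 2.62 and 8.54 CPM in Ppy+ cells and no UMI in Sst+ cells, and its bulk level was 7.58 CPM in δ-cell library 1 and at most 0.639 CPM in the other δ-cell libraries. Flrt1, a ligand of latrophilins, was lower in both assays, at -3.05 ± 0.16 and -1.50 ± 0.39 on the log2 scale, and so was the scaffold gene Shank2, at 3.58 to 9.42 against 29.8 to 32.4 CPM in bulk and 0 and 0.427 against 6.42 and 4.73 CPM in single cells. Other partner genes did not match between assays. The catenins Ctnnb1 and Ctnnd2 averaged 373 and 78.4 CPM in γ- against 70.8 and 24.1 CPM in δ-cells in bulk. In single cells, Ctnnb1 stood at 57.6 and 63.8 CPM in Ppy+ against 89.8 and 78.8 CPM in Sst+ cells. Ctnnd2 stood at 12.1 and 12.8 against 16.7 and 22.1 CPM there.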

How the data were processed

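Reads of the bulk libraries had been aligned with STAR 2.7.2b and counted per gene with HTSeq 0.9.1 by the authors, who deposited the raw counts; the strand setting is not given in the sources used here. The single-cell tables hold UMI counts that the authors deposited after Cell Ranger. The members and lists were chosen with earlier results of these data known. Values of 1 gene, which stays in the counts, are not reported here. Another 6 columns of per-sample values in the bulk table were not used.

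Bulk counts were TMM-scaled and tested with edgeR 4.0.16 (quasi-likelihood, R 4.3.3; Benjamini-Hochberg over all genes with a mean of at least 5 counts; adjusted p at most 0.05 and log2 fold change at least 1). For single cells, 120 cells were marked as doublets and removed. The remaining 5862 were clustered with Seurat 5.3.0 at a resolution of 0.1 without the genes examined, and hormone thresholds gave the classes. UMIs were summed per class and experiment and tested with edgeR with the experiment as a block. Cells were not treated as replicates. Intervals are exact 95% binomial or Poisson and cover counting error only. Genes were named whatever their values (Cdh1, Cdh2, neurexins, neuroligins, Lrrtm, Ncam and Cadm genes, and Cdh5, Cdh11, Pcdh12 and Pcdh17), or where they passed a comparison, by size of the change. In simulated counts for the bulk comparison of 17926 genes, the test called 31% of 2-fold and 58% of 4-fold changes, and 2.20% of calls were unchanged genes. A 2-fold change lies on the fold threshold itself, and 48% of these changes passed the adjusted p alone. For Ppy+ against Sst+ single cells, with 10556 genes, it called 23% of 2-fold and 72% of 4-fold changes, and 1.04% of calls were unchanged genes. Alternatives included DESeq2 1.42.0, other scalings and filters, blocks, thinned counts and leaving out each library.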

Additional observations from a re-analysis of the deposited data

Results flagged for a closer look

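Among 43 groups of 5 γ-cell libraries, 3 had 1 library far from the others, with a gap to the next library of more than 0.71 of the range (Dixon's criterion), which chance gives in about 1 of 20 groups. Cdh10 stood at 0.431 CPM in γ-cell library 2 and had no count in the other 4. Pcdh19 stood at 8.35 CPM in γ-cell library 3 against a median of 2.51 CPM. Pcdhga12 stood at 6.18 CPM in γ-cell library 1 against a median of 2.27 CPM.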

How the results depend on the processing

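Of the 35 genes called in bulk, 18 were called under every alternative run, and Pcdh8, Lrrtm1, Cdh9, Cdh8, Cadm1, Ncam1 and Ncam2 kept their direction and call with upper-quartile scaling, which shifted the median of all genes from -0.055 to -0.35. Leaving out 1 library gave 27 to 36 genes, the lowest without δ-cell library 2. There 5482 of all 17942 genes were called, against 6268 of 17926 with every library. Leaving out δ-cell libraries 1 and 2 together, chosen after seeing the data, left 1 δ-cell library. The median log2 difference in that fit was -0.0475 for the genes examined and 0.0374 over all genes. The replicate block gave 30 genes in bulk (10 higher, 20 lower), against 3312 higher and 2061 lower of all 17926 genes, but the numbers do not pair the libraries (correlations of -0.0952, 0.0679 and -0.274). Cdh5 had log2 differences of -3.50 to 0.0789 when 1 library was left out, reversed to 0.0789 without δ-cell library 1, and was at 0.70 without δ-cell libraries 1 and 2, and Cdh13 in B lineage-like cells ranged from -0.77 without the sum of experiment 2 to 4.51 without that of experiment 1. In single cells, a library block left 4 genes called for Ppy+ against Gcg+, 7 against Ins2+ and 4 against Sst+ cells, and 0 for Ppy+Gcg+ against Gcg+ cells with edgeR, where 2 had an unadjusted p under 0.05. Only 16 of the genes could be tested there, and of all 8089 genes 34 were called for Ppy+Gcg+ against Gcg+ cells. Thinning each cell to 1000 UMIs left 6 genes to test, of which 2 were called in each comparison of Ppy+ with Gcg+, Ins2+ and Sst+ cells, 4 for Gcg+ against Ins2+, 2 for Gcg+ and 2 for Ins2+ against Sst+, 2 for Ppy+Gcg+ against Ppy+ and 0 against Gcg+ cells, where 0 had an unadjusted p under 0.05. Of all 3572 genes in that fit, 323, 484 and 392 were called for Ppy+ against Gcg+, Ins2+ and Sst+ cells. The counts were 528 for Gcg+ against Ins2+, and 410 and 310 for Gcg+ and Ins2+ against Sst+ cells. They were 93 and 31 for Ppy+Gcg+ against Ppy+ and Gcg+ cells. For bihormonal cells, the fit with no replicate block called 0 genes against Ppy+ and 1 against Gcg+ cells, DESeq2 called 1 and 1, and no filter on low genes gave 4 against Gcg+ cells. Of all 10556 genes, the fit with no replicate block called 88 and 74, and DESeq2 127 and 110. Without the filter, 357 of all 18792 genes were called against Gcg+ cells. Leaving out 1 sum gave 7 to 9 genes for Ppy+ against Gcg+, 7 to 20 against Ins2+ (lowest without Ins2+ of experiment 1), 8 to 12 against Sst+, 8 to 15 for Gcg+ against Ins2+, 7 to 11 for Gcg+ against Sst+, 6 to 13 for Ins2+ against Sst+, 1 to 3 and 1 to 2 for Ppy+Gcg+ against Ppy+ and Gcg+, and 11 to 12, 12 to 13 and 10 to 13 for B lineage-like, endothelial-like and stromal-like cells. The cause was not tested. With thinning and with the library block, fewer genes could be tested.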

Other observations

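In the finer clustering, Cdh1 stood at 362 CPM before scaling in a cluster of 129 cells led by Spp1, Apoc1, Clu, Cp and Sox9, against 13.9 CPM of Cdh2. The cluster with the highest Cdh2, at 218 CPM before scaling, held 495 cells and Cdh1 at 116 CPM. Lrrtm4, too low to be tested in single cells, had 48 UMIs in Ppy+ cells, 3 in Gcg+, 2 in Ins2+ and none in Sst+ cells. The Sst+ sums were far smaller, at 547993 and 394696 UMIs against 5903970 and 5518687 in Ppy+ cells, so that none there is not a measured absence. A finer cluster led by Fam159b, Dpp6 and Sst, which was also high in Ppy and had a mean Gcg near its threshold, held 9 UMIs of Lrrtm4 (2.67 CPM before scaling).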
